A study of Mus musculus with 16 samples.

Results

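The genes described are 10 members of 3 families of chromatin proteins: Hmgn1, Hmgn2, Hmgn3 and Hmgn5 (nucleosome-binding HMG proteins), Hmgb1, Hmgb2 and Hmgb3 (HMG-box proteins), and Anp32a, Anp32b and Anp32e (acidic leucine-rich histone chaperones). They were taken by symbol from the 21220 genes of the authors' normalized table, and all 10 were also in the counts and passed the filter on low counts. The families were picked because Hmgn2 and Anp32b were lower with the deacetylase inhibitor FK228. The FK228 differences of the members below are therefore a description. Calls of members for FK228 come from the contrast behind that choice, so they carry no weight as tests and no p-values are given. The comparisons between genotypes did not enter that choice and were tested.

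The study measured polyadenylated RNA by sequencing in cultured organs of Corti, which hold the hair cells of the inner ear, taken from C57BL/6 mice at postnatal day 0. Animals were either wild-type or Rest(+/deltaExon4), heterozygous for a Rest allele without exon 4. REST represses neuronal genes outside neurons and works with histone deacetylases. Cultures were kept for 3.5 days and received 2 nM FK228 (romidepsin, which inhibits class I histone deacetylases) or its solvent, 0.1% DMSO, in day 1 to 1.5 and again in day 3 to 3.5. Each of the 4 groups (wild type and heterozygous, in solvent and with FK228) had 4 libraries, and each library was a pool of 6 to 8 cultures. Nothing in the labels ties pools to litters, and the p-values therefore reflect pool-to-pool variation, which may be technical in part. The whole explant was sequenced, so fewer cells of a type and less RNA per cell cannot be told apart.

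HMGN proteins bind the nucleosome core directly and loosen chromatin by competing with the linker histone H1. HMGB proteins bend DNA with a pair of HMG boxes, carry an acidic tail that tempers this binding, and act as an alarm signal when HMGB1 leaves the cell. ANP32 proteins carry a leucine-rich repeat domain and an acidic tail. With SET, ANP32A and ANP32B can shield histones from acetylation, and ANP32E removes the histone variant H2A.Z from nucleosomes.

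The HMGN family is defined by a nucleosome-binding core of 8 residues, and the bases that encode it are shown because all 4 HMGN genes keep the core while their RNA levels went separate ways. All 8 residues matched in Hmgn1, Hmgn2, Hmgn3 and Hmgn5, and at most 3 matched anywhere in the other 6 proteins. The bases come from GENCODE M21 transcripts, 24 per gene, and capitals mark those that differ from Hmgn2.
Hmgn2: agaagatctgcgaggttgtctgct
Hmgn1: CgCCgCtcCgcgaggCtgtcGgcC
Hmgn3: agaCgGtcGgcCaggttgtcCgcG
Hmgn5: agaagatcAgcCCgACtgtctgct
Hmgn5 shared 19 of the 24 bases with Hmgn2, Hmgn3 shared 18 and Hmgn1 shared 16. Over the whole proteins, core included, 49.5% of alignment columns were identical between Hmgn2 and Hmgn3 and 39.6% between Hmgn1 and Hmgn2. Hmgn1, Hmgn2 and Hmgn3 encode small proteins of 96, 90 and 99 residues, whereas Hmgn5 encodes 406 residues, of which 37.9% are acidic.

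The HMGB proteins end in an unbroken run of aspartate and glutamate, and its length sets the members apart, at 30 residues in Hmgb1, 23 in Hmgb2 and 20 in Hmgb3. Its coding bases are shown with the aspartate codons in capitals and the glutamate codons in lower case.
Hmgb1: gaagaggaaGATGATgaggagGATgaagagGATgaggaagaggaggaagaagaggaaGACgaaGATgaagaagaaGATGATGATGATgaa
Hmgb2: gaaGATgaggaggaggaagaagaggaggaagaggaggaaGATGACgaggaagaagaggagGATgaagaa
Hmgb3: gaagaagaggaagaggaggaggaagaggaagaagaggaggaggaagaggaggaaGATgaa
The run holds 10 aspartates in Hmgb1, 4 in Hmgb2 and 1 in Hmgb3, and the 3 proteins were 70.2% to 79.5% identical by pair. The ANP32 proteins were 52.7% to 62.6% identical and hold acidic runs of 12, 17 and 11 residues in Anp32a, Anp32b and Anp32e, which do not reach the end of the protein.

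Libraries held 12361027 to 23611571 gene counts. The share of reads in no gene ranged from 11.2% to 22.2% and was lowest in heterozygous solvent replicate 4 and wild-type solvent replicate 1. Summed CPM (counts scaled to the size of the library) of 4 Y-linked transcripts ran from 0 to 262, so the sex mix of the pools differed, and Hmgn5 and Hmgb3 are X-linked. Spike-in RNA took 0.156% to 0.237% of gene and spike-in counts in the wild-type libraries, 0.165% to 0.232% in heterozygous solvent and 0.312% to 0.393% in heterozygous with FK228. With spike-in scaling, the all-gene median of the log2 fold changes was -0.18 for genotype in solvent, -0.74 for genotype with FK228, -0.16 for FK228 in wild type and -0.72 for FK228 in heterozygous cultures. Values below use TMM scaling, which sets these medians near 0. Markers of hair cells, supporting cells and neurons were present in every group (Myo6 at 204 to 414 CPM, Tecta at 409 to 817, Nefm at 45.2 to 264). Other markers of the same cells were low, such as Slc17a8 at 0.06 to 1.35 CPM, Prox1 at 1.66 to 10.4 and Rbfox3 at 1.31 to 8.36. Rest itself passed the test in none of the contrasts (lowest adjusted p 0.141), and whole-gene counts do not report exon 4.

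Compared per kb of exon, Hmgn2 was the highest of the 10 in solvent, at 154 ± 13.9 CPM per kb in wild type and 120 ± 7.0 in heterozygous cultures (SD, n = 4). Anp32b and Hmgb1 followed in wild type at 89.3 ± 5.52 and 83.4 ± 7.68 CPM per kb, whose ranges overlapped. Hmgb3 and Hmgn5 were the lowest in wild-type solvent, at 15.2 ± 1.65 and 11.6 ± 1.13 CPM per kb. With FK228 the order changed, and Hmgn1 and Hmgn3 took the first places in both genotypes with ranges that overlapped each other (79.8 ± 13 and 78.9 ± 5.6 CPM per kb in wild type). Hmgn2 ranked 3 in both, at 52.5 ± 3.58 CPM per kb in wild type and 38.2 ± 4.87 in heterozygous cultures. Exon length takes in all annotated transcripts of a gene (13 for Hmgn2, 1 for Anp32b). Sequence shared with other genes can also change counts, and ranks between genes depend on both. Within groups no member varied more than the median gene, though the members differed. Their pooled SD of log2 CPM ranged from 0.08 (Anp32e) to 0.22 (Hmgn1), against a median of 0.23 over all 17125 genes tested, which takes in genes with fewer counts. Of all genes, 2.21% had a smaller SD than Anp32e and 46.4% a smaller SD than Hmgn1.

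**Figure D1:**
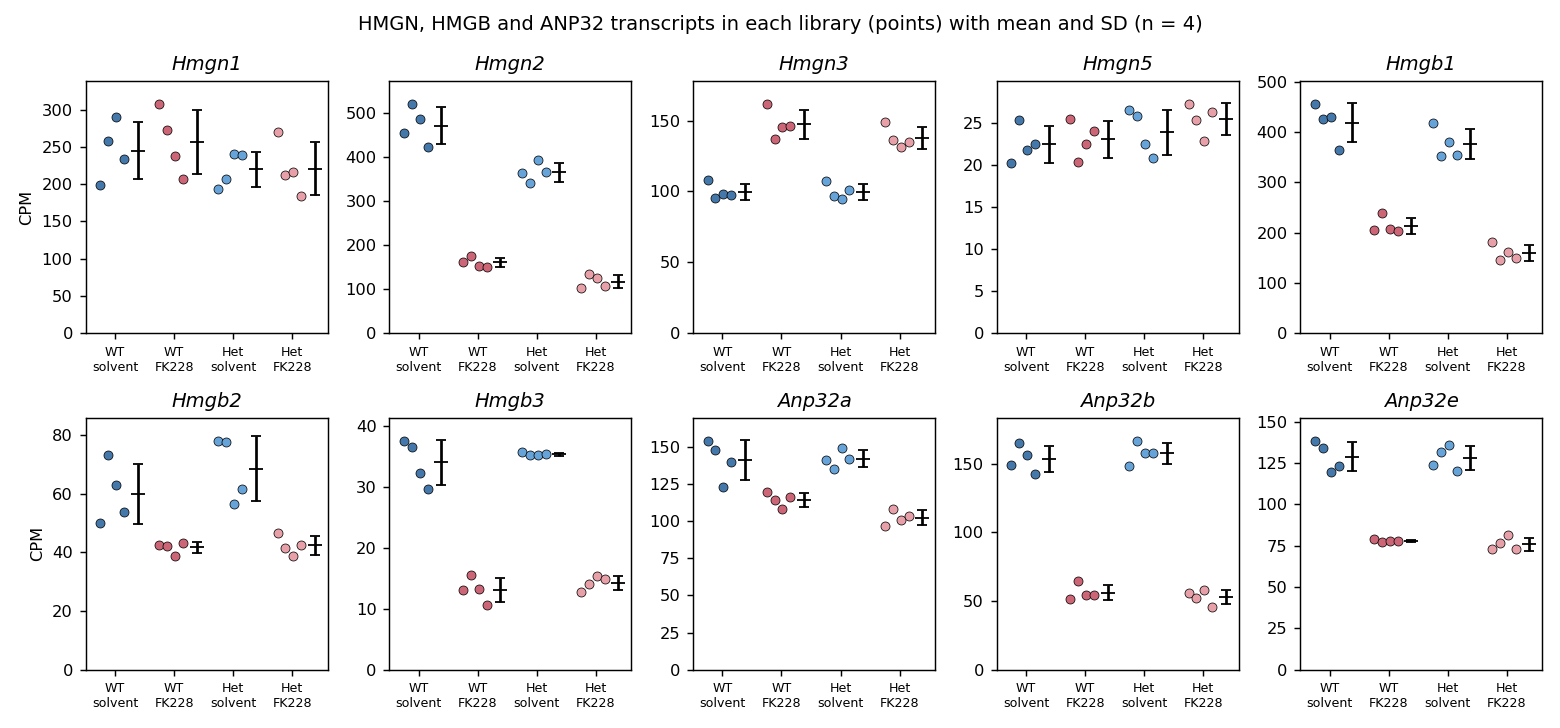
CPM of each member in each library (points, 4 per group), with the group mean and SD beside them and the y axis from 0. Hmgn2, Hmgb1, Hmgb3 and Anp32b show the widest gap between solvent and FK228 libraries, Hmgn3 is higher with FK228, and Hmgn1 and Hmgn5 overlap between all groups.

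The first question was what FK228 did to the 3 families. In wild type 7 of the 10 members were called lower (Hmgn2, the HMGB genes and the ANP32 genes), as were 25.3% of all genes, and 1 was called higher (Hmgn3), as were 23.7%. In heterozygous cultures 7 members were again called lower, against 24.7% of all genes, and 1 higher, against 23.8%. They were the same 7 genes and the same 1 gene in both genotypes, and these counts carry no weight because the choice of members used this contrast. A call is an adjusted p under 0.05 in edgeR's quasi-likelihood test. The members had a median log2 fold change of -0.62 in wild type and -0.72 in heterozygous cultures, beside all-gene medians of -0.01 and 0.00.

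Among the HMGN genes, Hmgn2, a broadly expressed nucleosome binder, had CPM of 454, 521, 488 and 423 in wild-type solvent replicates 1 to 4. With FK228 it had 162, 176, 154 and 151 in wild-type replicates 1, 2, 4 and 7. All FK228 libraries were below all solvent libraries, and the log2 fold change was -1.56 ± 0.09 (SE), or 2.94-fold lower. In heterozygous cultures Hmgn2 had 363, 341, 393 and 367 CPM in solvent and 102, 133, 125 and 107 with FK228. The groups again did not overlap, and the level was 3.14-fold lower.

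Hmgn3, an HMGN protein found in the nervous system and pancreatic islets, was higher instead. It had 108, 95.3, 98.4 and 97.2 CPM in wild-type solvent and 162, 137, 145 and 146 with FK228, so every FK228 library was above every solvent library. Its log2 fold change was 0.56 ± 0.07 in wild type and 0.47 ± 0.07 in heterozygous cultures, where the ranges of 94.5 to 107 and 131 to 149 CPM did not overlap. Under spike-in scaling the heterozygous value turned to -0.26, which is 0.46 above the median of all genes on that scale. A transcript annotated on the opposite strand (Gm29054) covers 13.6% of Hmgn3's exon bases, and the counts did not use strand.

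Hmgn1, the chromosome 16 member that competes with H1, and Hmgn5, the X-linked member with the long acidic tail, were not called. Hmgn1 ranged from 199 to 290 CPM in wild-type solvent and from 208 to 308 with FK228 (log2 fold change 0.07 ± 0.13). Hmgn5 ranged from 20.2 to 25.4 CPM and from 20.3 to 25.4 (0.04 ± 0.11). Solvent and FK228 libraries overlapped for both genes in both genotypes.

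The make-up of the HMGN transcripts differed between treatments. In wild type, Hmgn2 made up 52.2 ± 1.84% of the summed HMGN level per kb in solvent and 23.6 ± 1.72% with FK228, and Hmgn3 made up 18.2 ± 2.10% and 35.5 ± 2.47% (SD, n = 4). In heterozygous cultures the share of Hmgn2 was 47.1 ± 1.01% in solvent and 19.8 ± 2.90% with FK228. The size of each share depends on the annotated exon lengths, which are the same for all groups. The summed HMGN level in CPM was 839 ± 69.2 in wild-type solvent and 588 ± 56.0 with FK228, a smaller relative difference than that of Hmgn2 alone.

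**Figure D2:**
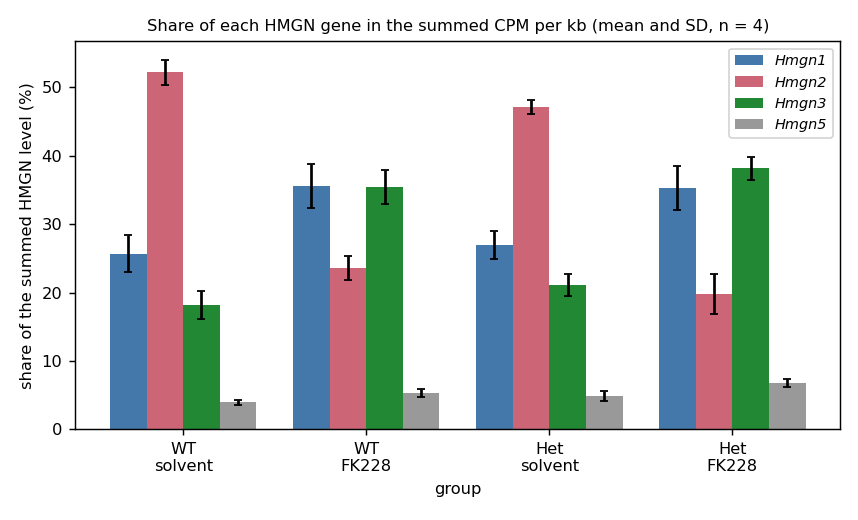
Share of each HMGN gene in the summed CPM per kb of the 4 HMGN genes, as group mean with SD over 4 libraries. Hmgn2 takes the largest share in both solvent groups, and Hmgn3 and Hmgn1 do in both FK228 groups.

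All 3 HMGB genes were lower with FK228 in both genotypes. Hmgb1, the HMGB gene with the highest level per kb in all 4 groups, had 456, 425, 430 and 365 CPM in wild-type solvent and 205, 238, 206 and 202 with FK228. In heterozygous cultures it had 417, 353, 379 and 354 CPM in solvent and 182, 144, 161 and 149 with FK228. The groups did not overlap in either genotype, and the level was 1.97-fold lower in wild type and 2.36-fold lower in heterozygous cultures. Hmgb3, an X-linked gene of stem and progenitor cells, went from 29.7 to 37.6 CPM in wild-type solvent to 10.6 to 15.5 with FK228, or 2.60-fold lower. In heterozygous solvent libraries it lay between 35.2 and 35.7 CPM, the tightest of the 40 member groups with a coefficient of variation of 0.62%. Hmgb2, a gene of dividing cells, was 1.44-fold lower in wild type (50.1 to 73.1 CPM against 38.8 to 43.3) and 1.62-fold lower in heterozygous cultures, with no overlap.

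Among the ANP32 genes, Anp32b, a chaperone of core histones, had 149, 165, 156 and 143 CPM in wild-type solvent and 51.7, 64.5, 54.4 and 54.1 with FK228. In heterozygous cultures it had 148, 167, 158 and 158 CPM in solvent and 55.6, 52.1, 57.9 and 46.0 with FK228. The gap between treatments was wide in both genotypes, at 2.73-fold and 2.98-fold lower. Anp32e, the H2A.Z chaperone, was 1.65-fold and 1.68-fold lower (120 to 139 CPM in wild-type solvent, 77.3 to 79.0 with FK228). Anp32a, a subunit of the inhibitor of histone acetyltransferases, was 1.24-fold and 1.39-fold lower, the smallest of the 7 differences. Its ranges in wild type were 123 to 154 CPM and 108 to 119, which lie close together but do not overlap.

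The rule had no fold threshold. Of the members that were called, Anp32a in wild type had the smallest size (-0.30 ± 0.07), and of those that were not called, Hmgn5 in heterozygous cultures had the largest (0.09 ± 0.11). Ranked from the lowest log2 fold change of 17125 genes in wild type, Hmgn2 stood at 644, Anp32b at 775 and Hmgb3 at 867. Over all genes, spike-in scaling called 4516 genes lower and 2008 higher in wild type (4333 and 4061 with TMM) and 10717 lower and 807 higher in heterozygous cultures (4229 and 4068 with TMM).

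**Figure D3:**
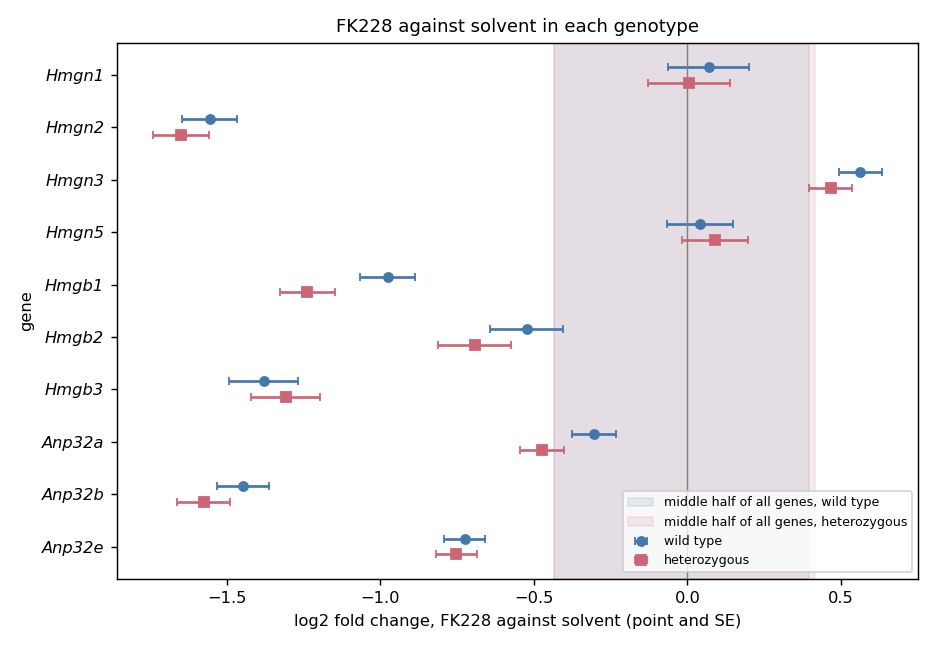
Log2 fold change with FK228 against solvent for each member (point) with its SE (bar), in wild type (circles) and heterozygous cultures (squares). The shaded bands span the interquartile range of all genes tested, and Hmgn2, Hmgb1, Hmgb2, Hmgb3, Anp32b and Anp32e lie to their left in both genotypes.

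Cell-type markers differed with FK228 beside the members, in both directions. All 14 macrophage markers passed the test as lower in both genotypes, and their summed level went from 480 to 571 CPM in wild-type solvent to 57.4 to 73.1 with FK228. None of them was at 0 across a group. Of 11 mesenchyme markers, 10 in wild type and 9 in heterozygous cultures were lower. Of 28 cell cycle genes, 20 and 24 were lower and 1 was higher in each, with medians of -1.03 and -1.19, against -0.01 and 0.00 for all genes. Of 12 supporting cell markers, 6 fell and 1 rose in wild type, and 8 fell in heterozygous cultures. Of 12 hair cell markers, 6 and 4 fell and 1 (Myo6) rose in each, a rise that spike-in scaling did not call in heterozygous cultures. Neuron markers went mostly the other way, with 4 of 11 higher and 2 lower in wild type and 6 higher with none lower in heterozygous cultures, where spike-in scaling gave 2 higher and 2 lower. Snap25, a synaptic gene, rose 2.62-fold in wild type and 11.3-fold in heterozygous cultures, from 1.93 ± 0.76 to 22.1 ± 1.72 CPM in the latter. The part of these cells in the members' differences was not tested.

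The second question was whether the heterozygous Rest allele changed the members, and here the test applies. In solvent, Hmgn2 fell in heterozygous cultures, as 1 of the 10 members called. Of all genes, 2.03% were called, 206 higher and 141 lower (104 and 192 with spike-in scaling). Its libraries ranged from 423 to 521 CPM in wild type and from 341 to 393 in heterozygous cultures, with no overlap. The log2 fold change was -0.37 ± 0.09, or 1.29-fold lower (edgeR, adjusted p = 0.0336). The other 9 members had log2 fold changes from -0.16 ± 0.09 (Hmgb1) to 0.19 ± 0.12 (Hmgb2), with adjusted p-values of 0.554 and above, and their groups overlapped. The members' median was 0.00, and that of all genes was -0.01.

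The call for Hmgn2 in solvent was narrow. It was lost without any one of wild-type solvent replicates 1, 2 and 3 or heterozygous solvent replicates 1, 2 and 5 (adjusted p 0.0562 to 0.128), with spike-in scaling (0.0681), with the Y-linked level as a term (0.070), and without the 2 libraries with the fewest reads in no gene (0.0579). A term for the replicate number ended the call as well (adjusted p 0.228 in edgeR). The log2 fold change of Hmgn2 stayed between -0.31 and -0.54 in all of these fits.

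With FK228, Hmgn2 and Hmgb1 fell in heterozygous cultures, 2 of the 10 members against 2.14% of all genes. Hmgn2 ranged from 151 to 176 CPM in wild type and from 102 to 133 in heterozygous cultures, and Hmgb1 from 202 to 238 and from 144 to 182. Neither pair of ranges overlapped. Hmgn2 was 1.37-fold lower (log2 fold change -0.46 ± 0.09, adjusted p = 0.00877) and Hmgb1 was 1.34-fold lower (-0.42 ± 0.09, adjusted p = 0.0152), both by edgeR. Leaving out heterozygous FK228 replicate 3 ended the call for Hmgb1 (adjusted p 0.0593), and the call for Hmgn2 held without any single library. With a term for the replicate number, edgeR called neither (adjusted p 0.0618 for Hmgn2 and 0.163 for Hmgb1).

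The other 8 members were not called with FK228 present. Anp32a came nearest, with -0.16 ± 0.07 and an adjusted p of 0.342. Hmgn1 was at -0.22 ± 0.13, and Hmgn5, Hmgb2 and Hmgb3 were on the higher side at 0.14 ± 0.11, 0.02 ± 0.12 and 0.13 ± 0.12. With spike-in scaling all 10 members were called lower between these groups, as were 12761 genes, against 96 higher (159 lower and 207 higher with TMM). Relative to the median of all genes on that scale, Hmgn2 was at -0.46, Hmgb1 at -0.42 and the others between -0.20 and 0.16. What the amount of spike-in RNA was set against is not given in the sources used here.

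**Figure D4:**
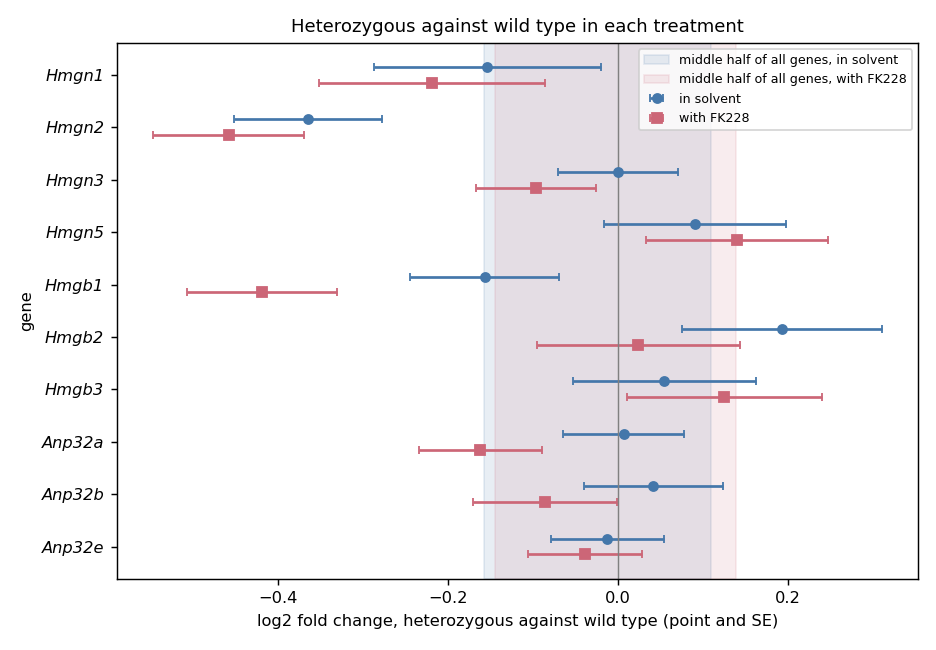
Log2 fold change of heterozygous against wild-type cultures for each member (point) with its SE (bar), in solvent (circles) and with FK228 (squares). Hmgn2 lies left of the shaded bands (interquartile range of all genes tested) in both treatments, and Hmgb1 does so by more than its SE with FK228.

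Markers of other cells also differed between genotypes. In solvent, 6 of 11 neuron markers fell (Snap25 by 3.25 ± 0.27 on the log2 scale, Nefl by 1.31 ± 0.26), and their summed level went from 491 to 796 CPM in wild type to 349 to 474 in heterozygous cultures, with none at 0. With FK228, 3 of the 11 fell (Nefl by 1.47 ± 0.26, Nefm by 1.20 ± 0.24 and Snap25 by 1.14 ± 0.22 on the log2 scale), and the sums were 626 to 986 and 514 to 672 CPM. Of 12 hair cell markers, Otof, a gene of synaptic release, fell in solvent (-1.24 ± 0.11, adjusted p = 2.12e-06) and with FK228 (-1.49 ± 0.12), and Calb2 fell with FK228 (-0.89 ± 0.18). Their sums were 584 to 784 and 398 to 596 CPM in solvent and 662 to 777 and 491 to 575 with FK228. None of the 14 macrophage markers was called in solvent, where their sums overlapped (480 to 571 and 332 to 484 CPM). With FK228 the macrophage complement gene C1qc was called (-1.12 ± 0.26, adjusted p = 0.0265), and the sums were 57.4 to 73.1 and 37.9 to 53.9 CPM. Among cell cycle genes with FK228, Mcm6 fell by 0.47 ± 0.11 and Ccnd2 rose by 0.39 ± 0.09, the latter turning to -0.34 under spike-in scaling. The part of these markers in the differences of Hmgn2 and Hmgb1 was not tested.

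The third question was whether the response to FK228 depended on genotype. None of the 10 members was called in the interaction, beside 0.0234% of all genes (3 higher and 1 lower with TMM, 9 and 4060 with spike-in scaling). One member, Hmgb1, had an unadjusted p under 0.05 (-0.26 ± 0.12, adjusted p = 0.855 in edgeR). DESeq2 and limma voom also called none of the 10. Spike-in scaling called 6 (Hmgn2, Hmgn3, Hmgb1, Anp32a, Anp32b and Anp32e) at -0.60 to -0.84, where the median of all genes was -0.56. The genotype difference of Hmgn2 with FK228 minus that in solvent was -0.09 ± 0.12.

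Some members share sequence with other genes, which can divide or merge their reads. Of the 126-base windows (the read length) of each gene's transcripts, 15.4% in Hmgb2, 14.97% in Hmgb1, 14.6% in Hmgn2, 10.6% in Hmgn5 and 8.58% in Hmgb3 were also found in another gene, while Anp32b and Anp32e had none. Hmgb1 shared windows with 31 genes, mostly processed pseudogenes. The copy of Hmgn2 with the most counts was Gm10282, chosen after its values were seen, at 14.2 ± 0.90 CPM in wild-type solvent against 472 for Hmgn2. Gm10282 was also lower with FK228 (-1.70 ± 0.14 in wild type), a value that reads from the sequence shared with Hmgn2 can enter. Gm10282 was not called between genotypes (0.19 ± 0.13 in solvent and 0.24 ± 0.14 with FK228, adjusted p-values 0.675 and 0.543). Other annotated copies were low, such as Anp32b-ps1 at 2.45 ± 0.57 CPM in wild-type solvent and 0.54 ± 0.33 with FK228, and Hmgb1-ps7 at 2.02 ± 0.41 and 0.80 ± 0.34. The pseudogene Gm11914, which holds 10.6% of the Hmgn5 windows, was at 2.36 to 4.12 CPM over all libraries, against 20.2 to 27.2 for Hmgn5.

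Positions are given on GRCm38 from GENCODE M21. Hmgn2 lies at chr4:133964738-133968650 and Anp32b at chr4:46450902-46472657. Hmgb1 lies at chr5:149046702-149184489, on the chromosome of Rest (chr5:77265491-77286432). Of 51 tested genes within 1 Mb of Hmgn2, 2 were called between genotypes in solvent: Pigv, which makes GPI anchors, rose (0.85 ± 0.16) and Cd164l2 fell (-0.89 ± 0.12). With FK228 only Pigv was called (0.83 ± 0.16). Pigv and Cd164l2, like Mtus2 and Gm8615 near Hmgb1, were picked after their values were seen. Of 19 near Hmgb1, 1 was called in solvent, Mtus2, which fell (-0.97 ± 0.16). With FK228 1 was called, the pseudogene Gm8615 inside the Hmgb1 gene, which rose (2.87 ± 0.71). Its ranges of 0.73 to 1.19 CPM in wild type and 1.18 to 10.7 in heterozygous cultures overlapped slightly. The Anp32e neighbourhood had 4 of 83 called in solvent and 7 with FK228, although Anp32e itself was at -0.01 ± 0.07 and -0.04 ± 0.07. Of all genes, 2.03% were called in solvent and 2.14% with FK228.

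Promoter windows of 250 bases before the start were available for 9 members, from RefSeq on GRCm38.p6, and Hmgn3 was not among them. The words searched on both strands were the NF-Y word CCAAT, the Sp1 word GGGCGG and the E-box word CACGTG, together with the CREB word TGACGTCA, the NRF1 word GCATGCGC, a pair of E2F words (TTTCCCGC as the first and TTTGGCGC as the second) and the TATA word TATAAA. At the first listed start, CCAAT was found in 8 of the 9 and in 34.5% of 27025 promoters of the same length. Hmgn2 was the member without it. GGGCGG was found in 6 of the 9 and in 32.9% of promoters. CACGTG was found in Hmgn2 and Anp32b, against 6.05% of promoters, and the other 5 words in none of the 9. Another listed start of Hmgb1, left out of these counts, held CACGTG and GGGCGG but not CCAAT. A match describes letters only and says nothing of a factor's binding. The windows of Hmgn2 and Anp32b are shown because these were the members with the largest FK228 differences in both genotypes. They are trimmed to the bases outside annotated exons of the gene, with matched words in capitals. The Hmgn2 window lies inside the annotated gene, which reaches base 133968650, so some annotated transcripts begin upstream of it. The first listed start of Hmgb1 also lies inside its annotated gene.
Hmgn2 promoter, chr4:133968002-133968241, minus strand: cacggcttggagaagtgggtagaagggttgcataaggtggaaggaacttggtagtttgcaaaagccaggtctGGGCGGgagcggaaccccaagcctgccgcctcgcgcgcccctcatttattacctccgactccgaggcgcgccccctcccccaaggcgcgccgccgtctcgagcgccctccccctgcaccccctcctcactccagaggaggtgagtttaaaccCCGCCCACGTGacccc
Anp32b promoter, chr4:46450676-46450901, plus strand: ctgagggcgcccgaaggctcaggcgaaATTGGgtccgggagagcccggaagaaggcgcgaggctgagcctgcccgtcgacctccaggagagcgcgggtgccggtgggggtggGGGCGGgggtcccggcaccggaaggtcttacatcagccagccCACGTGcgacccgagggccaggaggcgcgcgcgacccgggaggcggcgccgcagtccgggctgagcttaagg
In the Hmgn2 stretch the capitals at the right hold CACGTG and the reverse complement of GGGCGG, which overlap by 1 base. In the Anp32b stretch ATTGG is the reverse complement of CCAAT. The windows of the members were rich in G and C, from 54.0% (Anp32e) to 76.0% (Hmgn1) at the first start, against a median of 52.0% over all promoters.

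Genes named only by a clone or model number were left out of the next rankings. Of the rest, those whose log2 CPM followed Hmgn2 most closely over the 16 libraries were Efemp1 (Pearson r = 0.983), Gramd1b (0.983), C1qc (0.983), Dclre1a (0.981) and Herpud1 (0.980). Those that followed Anp32b most closely were Eif4g2 (0.996), Hdlbp (0.995), Sephs1 (0.994), Ppp2r5c (0.994) and Wnt5a (0.994). These correlations are descriptive, since the points are the same libraries and fall into the 4 groups. Efemp1, a matrix glycoprotein, went from 283 ± 34.2 CPM in wild-type solvent to 140 ± 10.6 with FK228. Eif4g2, a translation initiation factor, went from 2253 ± 110 to 1089 ± 88.8.

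Lists of related genes show what surrounded the members, and FK228 results for these genes carry tests. The lists were chosen with earlier results of these data known, and the genes named were picked by their small p. With FK228, 23.7% of all genes were called higher and 25.3% lower in wild type. In heterozygous cultures the shares were 23.8% and 24.7%, and the counts of each list stand beside these. Of the linker histones, which compete with HMGN proteins, 3 of 5 rose and none fell in each genotype (median log2 fold change 1.57 in wild type and 1.64 in heterozygous cultures), although under spike-in scaling 2 rose and 1 fell in heterozygous cultures. H1f0, the linker histone of resting cells, rose from 93.6 ± 5.86 to 293 ± 17.5 CPM in wild type (3.13-fold, adjusted p = 1.16e-10). Hist1h1c rose 6.33-fold to 12.4 ± 2.36 CPM in wild type (adjusted p = 1.06e-08). In heterozygous cultures H1f0 rose 3.22-fold and Hist1h1c 5.88-fold. None of the 5 was called between genotypes. Only polyadenylated RNA was measured, so linker histone RNA without a poly(A) tail would not have been counted.

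Of 18 other HMG-box and HMGA genes, 5 were higher and 8 lower with FK228 in both genotypes, with medians of -0.01 in wild type and 0.07 in heterozygous cultures. Ubtf, which opens ribosomal DNA, fell (-0.71 ± 0.08 in wild type, adjusted p = 5.5e-07), and Hmga1, an AT-hook protein, rose (0.96 ± 0.18, adjusted p = 0.000245). In heterozygous cultures the rise of Hmga1 (1.11 ± 0.19) was not called under spike-in scaling.

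Of 10 genes of the SET complex and other ANP32 partners, 2 rose and 3 fell in wild type, and 1 rose and 2 fell in heterozygous cultures. Under spike-in scaling 9 of them fell in heterozygous cultures and none rose. Set, the chaperone that joins ANP32A in blocking acetyltransferases, went from 1626 ± 122 to 1058 ± 60.1 CPM in wild type (-0.62 ± 0.07, adjusted p = 1.79e-06). Ppp2r1a, the scaffold of the phosphatase that ANP32A and SET inhibit, fell by 0.54 ± 0.07. Ppp2r1b, its second scaffold gene, rose with FK228 in wild type (0.32 ± 0.09, adjusted p = 0.00878) and was lower in heterozygous than in wild-type cultures with FK228 (-0.42 ± 0.09, adjusted p = 0.0223). The rise was not called under spike-in scaling.

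ANP32E works against the complexes that deposit H2A.Z. Of 15 H2A.Z genes and subunits of their exchange complexes, 3 rose and 9 fell in each genotype, with medians of -0.34 and -0.51. Znhit1 and Ruvbl1, subunits of depositing complexes, fell (-1.18 ± 0.09 and -0.89 ± 0.09 in wild type), and so did Ing3 (-0.80 ± 0.07). H2afv, 1 of the genes that encode H2A.Z, rose (0.55 ± 0.08). Under spike-in scaling 13 fell and none rose in heterozygous cultures. Yeats4 was the only gene of the list called between genotypes, with FK228 (-0.41 ± 0.10, adjusted p = 0.0404).

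Of 36 other histone chaperones, 9 rose and 11 fell in wild type, where 23.7% of all genes rose and 25.3% fell. In heterozygous cultures 6 rose and 13 fell, where 23.8% of all genes rose and 24.7% fell. Under spike-in scaling 27 fell and none rose in heterozygous cultures. The centromeric chaperone Hjurp fell (-1.11 ± 0.13 in wild type), as did the FACT subunit Ssrp1 (-0.51 ± 0.06), and Tspyl1 rose (0.66 ± 0.08). The second FACT subunit, Supt16, rose in heterozygous cultures in solvent (0.49 ± 0.10) and with FK228 (0.49 ± 0.10), with adjusted p-values of 0.00863 and 0.0103, though spike-in scaling ended the first call (0.32) and turned the second to -0.24. Tspyl5 fell in both (-0.52 ± 0.10 and -0.59 ± 0.11).

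HMGB1 outside the cell signals through a set of receptors and partners, of which 11 were tested. With FK228, 1 rose and 5 fell in each genotype (medians -0.45 and -0.48), and under spike-in scaling 10 fell and none rose in heterozygous cultures. Cxcl12, the chemokine that forms a complex with HMGB1, went from 253 ± 12.5 to 76.7 ± 11.3 CPM in wild type (-1.72 ± 0.13, adjusted p = 1.06e-08). Cxcr4, the receptor of that complex, rose in heterozygous cultures. It was at 8.08 ± 0.95 CPM in wild type and 18.5 ± 3.33 in heterozygous solvent libraries (1.19 ± 0.14, adjusted p = 4.18e-05). With FK228 the genotype difference of Cxcr4 was 1.07 ± 0.14 (adjusted p = 0.000191), and spike-in scaling ended that call. Ptprz1, a receptor-type phosphatase, fell in heterozygous cultures in solvent (-0.57 ± 0.14, adjusted p = 0.0398, a call that spike-in scaling ended) and with FK228 (-0.60 ± 0.14). Tlr4, a receptor of immune cells, was low (6.33 ± 1.40 CPM in wild-type solvent) and fell by 1.38 ± 0.33.

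**Figure D5:**
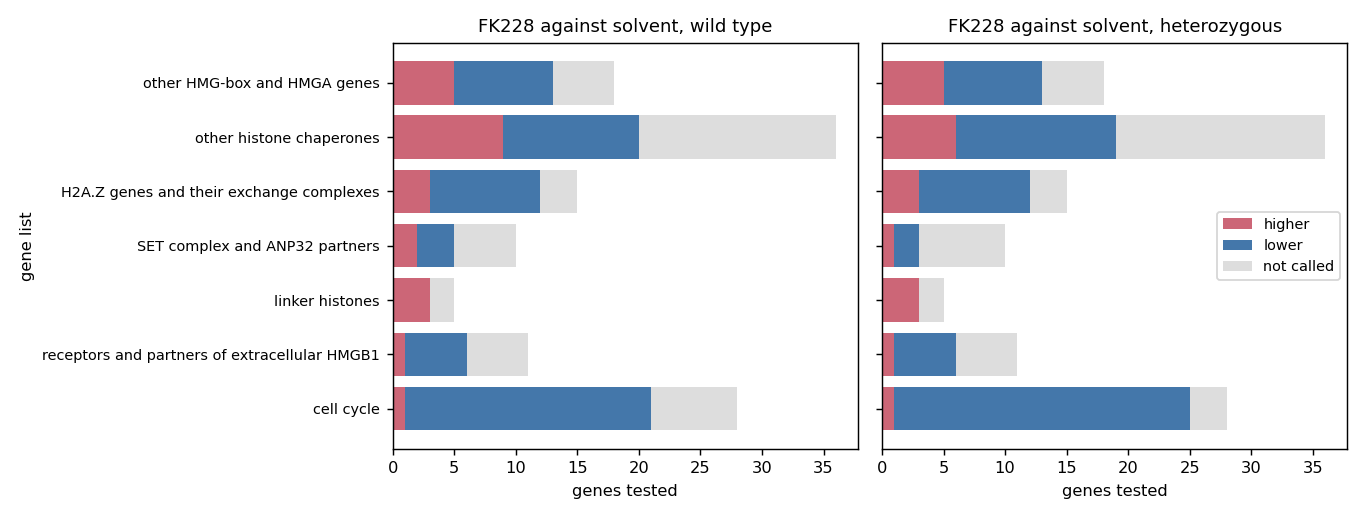
Number of genes tested in each list that were called higher, called lower or not called with FK228 against solvent, in wild type (left) and heterozygous cultures (right). Cell cycle genes are mostly lower (20 and 24 of 28), and 3 of 5 linker histones are higher with none lower.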

How the data were processed

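RNA from 16 pools, 4 in each of 4 groups, was, per the labels' protocols, reverse transcribed from oligo dT primers and tagmented before sequencing. The authors deposited whole-number read counts per gene for each library and a table of normalized signal for 21220 genes. Reads were aligned with STAR 2.5.2a to GRCm38.p4 and DESeq2 was used, per the submitters' processing notes. In the deposited table each normalized signal was the count divided by 1 factor per library (0.801 to 1.41), and 100% of the values gave back whole counts within 0.001 reads. The counts were therefore tested directly. Rows that name no gene and the 92 spike-in rows stayed out of the gene counts, which ran from 12361027 to 23611571 a library. Library sizes in the fit were summed over the genes that passed the filter below. Reads in no gene were 11.2% to 22.2%.

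Counts were filtered (filterByExpr, minimum count 10 and total 15), leaving 17125 genes, scaled by TMM and fitted over all 4 groups with edgeR 4.0.16 (quasi-likelihood test, R 4.3.3). Adjusted p-values are Benjamini-Hochberg over all 17125 genes, with a threshold of 0.05, and all adjusted p-values printed come from this fit unless another is named. CPM are TMM-scaled, and CPM per kb divides by the exon length of the gene in GENCODE M21, which matched 99.3% of gene identifiers. The fit was tested on simulated counts. No 2 libraries of a group agreed within sampling noise (lowest chi-square per gene 6.57).

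The members and the lists of related genes were chosen with earlier results of these data known. Named genes are the 10 members, their annotated copies, up to 4 genes with the smallest p per list and contrast, the 5 genes closest to Hmgn2 and to Anp32b, and Rest. The closest genes were ranked without those named only by a clone or model number. Of 222 list entries in 17 lists, 214 matched a gene. Alternatives were DESeq2 1.42.0, RLE factors, spike-in scaling, no filter, CPM of at least 1 in 4 libraries, fits limited to the pair of groups in a contrast, a replicate block, limma 3.58.1 voom with quality weights, a Y-linked term, leaving out libraries, and counts recovered from the normalized table (added after the data were seen). Sequences were read with Biopython 1.88 and plain Python 3.11.15. The result of 1 gene of the lists is not reported here.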

Additional observations from a re-analysis of the deposited data

Results flagged for a closer look

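In wild-type cultures with FK228, Hmgb1 in replicate 2 stood at 237.9 CPM, apart from the other 3 libraries at 202.1 to 206.3 CPM. The gap to the nearest library was 0.884 of the whole range, above Dixon's 95% critical value for 4 libraries. Of the 40 member groups examined, 1 was set apart in this way, and chance alone marks about 1 in 20 groups. The comparison of Hmgb1 between genotypes with FK228 kept its call without this library (log2 fold change -0.365, edgeR adjusted p 0.0483).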

How the results depend on the processing

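The number of genes called for genotype in solvent (347) became 550 with DESeq2 and 211 with the replicate block, and ranged from 237 to 384 when 1 library was left out. For genotype with FK228 (366) it became 638 with DESeq2, 12857 with spike-in scaling and 107 with the replicate block, and ranged from 188 to 421. The interaction (4) became 16 with DESeq2, 4069 with spike-in scaling, 10 with no filter, 0 with the replicate block in edgeR, 2 with limma voom and 2 without the 2 libraries with the fewest reads in no gene, and ranged from 2 to 6. With 1 library left out, the FK228 counts ranged from 7532 to 8604 in wild type (8394 with all) and from 7588 to 8466 in heterozygous cultures (8297 with all). The other alternatives gave 6524 to 8838 and 7376 to 11524. Spike-in scaling turned the sign, with a call on the new side, of Hmgn5 (-0.5769), Hmgb2 (-0.7006) and Hmgb3 (-0.624) for genotype with FK228, and turned the sign of Hmgn3 (-0.2581) for FK228 in heterozygous cultures. Among members not called with FK228 it also turned Hmgn1 and Hmgn5 to -0.69 and -0.63 in heterozygous cultures and to -0.11 and -0.13 in wild type. By construction it moves all genes of a contrast together, by the medians given above.

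With group means removed, same-numbered pools of a genotype correlated from -0.104 to 0.150, and same-numbered pools of different genotypes from -0.231 to 0.169. These few values cannot settle whether the replicate numbers pair the pools. With the replicate block, Hmgn2 for genotype was at -0.31 in solvent (adjusted p 0.228) and -0.52 with FK228 (0.0618), and Hmgb1 with FK228 at -0.38 (0.163), and the cause was not tested. Of the 11 alternatives other than leaving out 1 library, 7 called Hmgn2 in solvent and 10 called Hmgn2 and Hmgb1 with FK228. Counts recovered from the normalized table gave the same calls for the members. The member with the fewest counts among those called, Hmgb3, had 168 to 831 counts a library, and the copy Anp32b-ps1 had 3 to 55.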
